A study of Mus musculus with 6 samples.

Results

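The expression of 9 cytotoxic granule genes was followed in 6 RNA-seq libraries of mouse CD4+CD25+ T cells, a fraction rich in regulatory T cells (Tregs). The genes are the granzymes Gzma, Gzmb, Gzmc, Gzmk and Gzmm, the pore-forming protein Prf1, the granule membrane protein Nkg7, the death ligand Fasl and the granzyme B inhibitor Serpinb9. The 9 genes were taken by symbol from 38924 gene models, and all 9 were present. Both groups were sorted from spleen and mesenteric lymph nodes of untreated WT mice, syngeneic, male and female, aged 10 to 16 weeks. The 3 ILT3+ samples carried surface ILT3, an inhibitory receptor encoded by Lilrb4, and the 3 ILT3- samples did not. Samples are numbered 1 to 3 in both groups. Whether each sample is a separate animal is not in the labels, and the p-values therefore reflect only sample-to-sample spread, part of which may be technical.

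Cytotoxic lymphocytes store perforin and granzymes in secretory lysosomes and release them onto a target cell. Perforin opens the target's membrane, granzymes enter and cleave proteins there, and granzyme B starts apoptosis through caspases. Serpinb9 blocks granzyme B in the cytosol of the cell that makes it, and Fas ligand kills by a separate route through the receptor Fas. Some activated Tregs are known to use granzyme B and perforin against other immune cells.

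Total gene reads per library ranged from 9334370 to 13648274. Levels are given as CPM, read counts scaled to library size after TMM normalisation. On this scale 3 reads, the floor used here, were worth between 0.218 and 0.360 CPM. Lilrb4 ran from 3.24 to 5.81 CPM over the ILT3- libraries and from 284.0 to 406.9 CPM over the ILT3+ libraries, which follows the sort labels. The 7 T cell and Treg markers summed to between 4527 and 5894 CPM in ILT3- libraries and to between 4607 and 5566 CPM in ILT3+ libraries, and 0 of the 7 were called. Summed markers of dendritic cells, plasmacytoid dendritic cells, macrophages and red cells were each higher in every ILT3+ library than in any ILT3- library. For macrophages the gap was narrow outside ILT3+ sample 1. The sums of all marker lists stand after the gene lists.

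Gzmb and Serpinb9 were higher in all 3 ILT3+ libraries than in any ILT3- library, and Gzma was found almost only in ILT3+ libraries. The other 6 members overlapped between the groups. Of the 9 members, 7 had enough reads to be tested, and 0 of the 7 were called by edgeR (quasi-likelihood test, Benjamini-Hochberg adjusted p under 0.05), which called 2.31% of 13694 tested genes. At an unadjusted p of 0.05 the members gave 2 of 7, Gzmb and Serpinb9, against 13.8% of all tested genes. The same 2 of 7 did not overlap between the groups, against 20.2% of all tested genes. With the sample number as a block, edgeR called Gzmb and Serpinb9 higher, 2 of 7, where it called 6.81% of all tested genes, 4.18% higher and 2.62% lower. DESeq2 called 1 of 7, Serpinb9, against 6.92% of all genes, and limma-voom called 0 of 7 against 2.4%. The median log2 fold change of the 7 was 1.02, and 6 of the 7 were above 0, beside a median of -0.02 over all tested genes. In RNA from sorted pools, fewer cells of a type and less RNA per cell cannot be told apart.

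**Figure D1:**
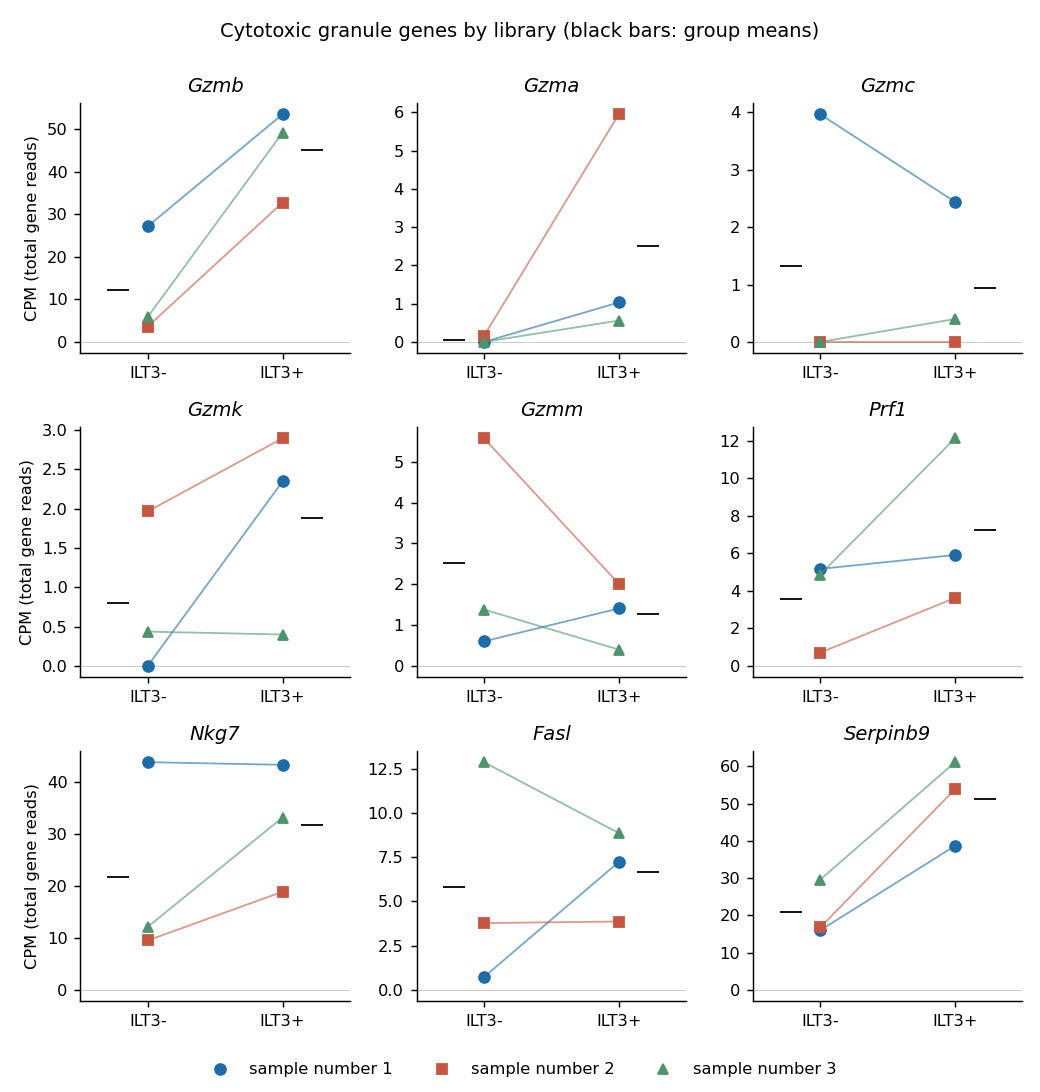
CPM of each of the 9 members in each library, with ILT3- and ILT3+ side by side, a point per library, a line joining libraries of the same number and a black bar at each group's mean (axes differ between panels). Gzmb runs from 3.61 to 27.1 CPM in ILT3- and from 32.7 to 53.5 CPM in ILT3+, Serpinb9 is likewise separated, and Nkg7 and Fasl overlap.

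Because Gzmb and Serpinb9 are the members on which the comparison turns, the 250 bases before their RefSeq start sites are shown first (GRCm38.p6). The Gzmb window lies at chr14:56262335-56262584 on the minus strand and the Serpinb9 window at chr13:33004291-33004540 on the plus strand. Both are free of annotated exons, and the Serpinb9 window lies within the files' Serpinb9 model, which begins further upstream. Capitals mark matches on either strand to motifs of factors known to act on such genes: the RUNX core TGTGGT, the AP-1 motif TGANTCA, the T-box half-site GTGTGA and the core GAAAGT shared by Blimp-1 and IRF sites. No overlap between matches of different motifs occurs in these windows.
Gzmb: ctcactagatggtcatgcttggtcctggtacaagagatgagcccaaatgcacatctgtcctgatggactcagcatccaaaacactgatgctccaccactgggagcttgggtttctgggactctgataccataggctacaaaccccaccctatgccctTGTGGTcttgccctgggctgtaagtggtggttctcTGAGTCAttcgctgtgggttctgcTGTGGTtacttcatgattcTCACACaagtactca
Serpinb9: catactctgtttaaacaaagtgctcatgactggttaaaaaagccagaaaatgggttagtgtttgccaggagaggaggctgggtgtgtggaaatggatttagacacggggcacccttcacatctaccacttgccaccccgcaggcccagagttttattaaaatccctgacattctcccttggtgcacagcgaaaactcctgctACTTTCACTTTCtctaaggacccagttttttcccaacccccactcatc
The Gzmb window holds 2 RUNX cores, at -93 to -88 and -34 to -29 from the start, 1 AP-1 motif at -58 to -52 and 1 T-box half-site, read as TCACAC, at -15 to -10. The Serpinb9 window holds 2 adjacent copies of GAAAGT on the reverse strand, read as ACTTTC at -48 to -43 and -42 to -37, and 0 matches to the other motifs. Such matches are common: of 32851 windows of the same length, 14.05% hold TGTGGT, 6.75% TGANTCA, 12.3% GTGTGA and 12.3% GAAAGT. Members whose groups overlapped hold them too: 2 RUNX cores in the window of Gzmc, 1 each in those of Gzmm, Prf1 and Nkg7, and 2 copies of GAAAGT in that of Gzmm. The matches describe letters only and are not binding sites measured here.

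Gzmb, the granzyme that cleaves caspases, had 27.1, 3.61 and 5.89 CPM in ILT3- samples 1, 2 and 3, and 53.5, 32.7 and 49.1 CPM in ILT3+ samples 1, 2 and 3. The lowest ILT3+ library was above the highest ILT3- library, and ILT3- sample 1 stood well above its 2 companions. Group means were 12.2 ± 12.98 and 45.1 ± 10.9 CPM (SD, n = 3 each). ILT3+ over ILT3- gave a log2 fold change of 1.90 (SE 0.70, edgeR adjusted p = 0.276), so the difference did not pass against the spread between replicates. With the sample number as a block the fold change was 2.39 (SE 0.49) and the edgeR adjusted p was 0.0393, and over 21 alternatives the adjusted p ranged from 1.91e-05 to 0.513.

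The fold change moved most without ILT3- sample 1. Without that library the Gzmb log2 fold change was 3.24 (edgeR adjusted p = 0.0113), in a fit that called 1 of the members and 2.24% of all genes. Without both samples numbered 1 it was 3.13 (edgeR adjusted p = 0.00501), in a fit that called 2 of the members, Gzmb and Serpinb9, and 5.64% of all genes. Within number 1 the ILT3+ library had 1.97 times the Gzmb CPM of the ILT3- library (95% counting interval 1.69 to 2.31). Within number 2 the ratio was 9.06 (6.67 to 12.6) and within number 3 it was 8.35 (6.61 to 10.7). These intervals cover counting error only, and they show that the ratio was in the same direction in each number and smaller in number 1. Both libraries numbered 1 also had the largest shares of mitochondrial rRNA, 2.96% and 2.27% against 1.13% to 1.66% in the other 4, and ILT3- sample 1 had the fewest reads. The part of this in the ratios was not tested.

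The reads on Gzmb were nearly all exonic. Of all Gzmb reads 2.62% were intronic, while introns took 24.0% to 28.3% of the reads of a library, and 99.9% were unique. Reads across exon junctions numbered 48 in ILT3- and 227 in ILT3+ libraries. The model lies at chr14:56258856-56262260 on the minus strand.

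Gzma, a tryptase-like granzyme, had 0, 2 and 0 reads in ILT3- samples 1, 2 and 3, and 11, 74 and 7 reads in ILT3+ samples 1, 2 and 3. Every ILT3+ library was above every ILT3- library, and ILT3+ sample 2 held most of the reads. On the CPM scale these were 0, 0.157 and 0, and 1.03, 5.95 and 0.558. Summed over libraries the ratio was 45.0 (counting interval 12.1 to 377), from 2 reads against 92. All Gzma reads were exonic and 24 of those in ILT3+ crossed a junction, against 0 in ILT3-. Gzma did not pass the read filter, so it has no test, and the interval does not carry the spread between samples.

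Gzmc, which lies beside Gzmb in the granzyme cluster of chromosome 14, had few reads in either group. Gzmc had 33, 0 and 0 reads in ILT3- samples 1, 2 and 3, and 26, 0 and 5 reads in ILT3+ samples 1, 2 and 3. Nearly all of these reads were thus in the 2 samples numbered 1, one in each group. The CPM ratio over all libraries was 0.918 (counting interval 0.544 to 1.55). In ILT3+ sample 1, 20 of the 26 reads were unique, so some may belong to a near-identical granzyme. Gzmd, Gzme, Gzmg and Gzmn had 0 reads in all 6 libraries, and Gzmf had 18 reads, all in ILT3+ sample 1, of which 77.8% were intronic and 0 crossed a junction.

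Gzmk, a tryptase-like granzyme of memory T cells, had 0, 25 and 6 reads in ILT3- samples 1, 2 and 3, and 25, 36 and 5 reads in ILT3+ samples 1, 2 and 3. The groups overlapped, with a log2 fold change of 1.18 (SE 1.20, edgeR adjusted p = 0.768). The reads differed in kind between the groups: 67.7% of those in ILT3- and 7.58% of those in ILT3+ were intronic, and 3 against 17 crossed a junction. On exon reads per kilobase (exon RPKM, computed here and scaled to library size) Gzmk was at 0, 0.566 and 0 in ILT3- libraries and at 1.55, 1.91 and 0.287 in ILT3+ libraries. Its model spans chr13:113171608-113225908 and overlaps Esm1 on the other strand, and the counting is not stated to use strand, so intronic reads there cannot be assigned to one gene.

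Gzmm, whose product cleaves after methionine, was the only tested member with a fold change below 0. It had 0.601, 5.58 and 1.38 CPM in ILT3- samples 1, 2 and 3, and 1.41, 2.01 and 0.399 CPM in ILT3+ samples 1, 2 and 3. The groups overlapped and ILT3- sample 2 was highest. The log2 fold change was -0.99 (SE 0.95, edgeR adjusted p = 0.755), and it was 0.35 without ILT3- sample 2. Of Gzmm reads 50.5% in ILT3- and 82.2% in ILT3+ were intronic. Exon reads numbered 3, 34 and 10 in the ILT3- libraries and 3, 2 and 3 in the ILT3+ libraries, and junction reads 10 against 1, so spliced Gzmm in ILT3+ rests on a few reads.

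**Figure D2:**
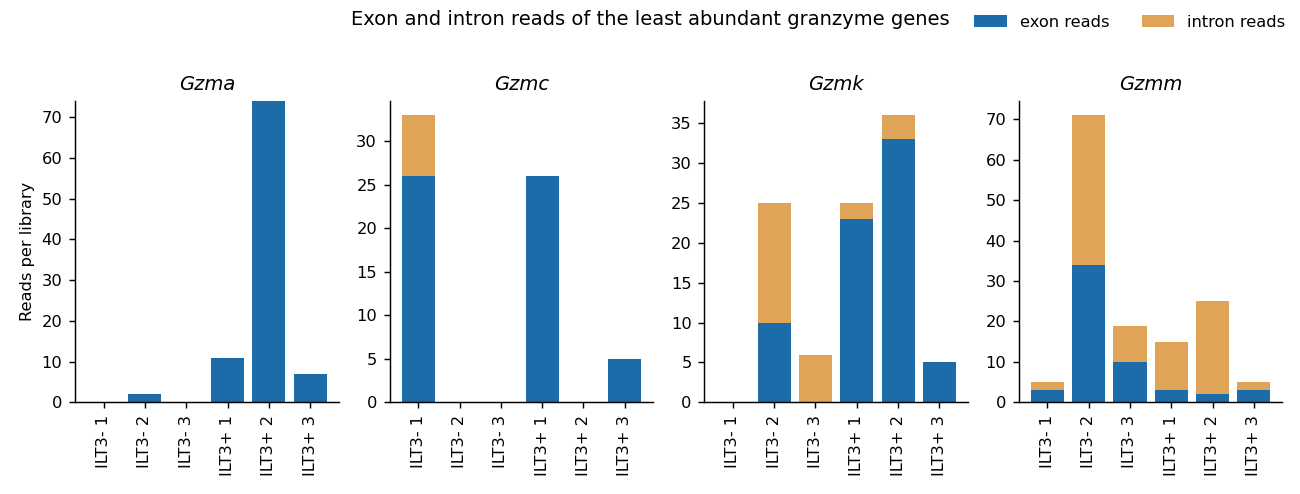
Exon and intron reads of Gzma, Gzmc, Gzmk and Gzmm in each library, as stacked bars on an axis of reads that starts at 0 and differs between panels. Gzma is exonic throughout, Gzmk is mostly intronic in ILT3- and exonic in ILT3+, and Gzmm is mostly intronic in ILT3+ samples 1 and 2.

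Prf1 encodes perforin, without which granzymes do not reach the cytosol of a target. It had 5.17, 0.707 and 4.87 CPM in ILT3- samples 1, 2 and 3, and 5.91, 3.62 and 12.1 CPM in ILT3+ samples 1, 2 and 3. The groups overlapped, although each ILT3+ library was above the ILT3- library of its number. Means were 3.58 ± 2.49 and 7.22 ± 4.40 CPM (SD, n = 3 each), and the log2 fold change was 1.02 (SE 0.80, edgeR adjusted p = 0.682). It did not pass with the block either (1.24, SE 0.58, edgeR adjusted p = 0.291). The CPM ratio within number 1 was 1.14 (counting interval 0.764 to 1.73), within number 2 it was 5.12 (2.47 to 11.9) and within number 3 it was 2.49 (1.86 to 3.37).

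Nkg7, a membrane protein of granules needed for their release, had 43.9, 9.51 and 12.1 CPM in ILT3- samples 1, 2 and 3, and 43.3, 18.9 and 33.2 CPM in ILT3+ samples 1, 2 and 3. The libraries numbered 1 were the highest of each group and nearly equal to each other. The log2 fold change was 0.55 (SE 0.60, edgeR adjusted p = 0.788), and with the block it was 0.80 (SE 0.33, edgeR adjusted p = 0.237). The ratio within numbers 1, 2 and 3 was 0.988 (counting interval 0.860 to 1.14), 1.99 (1.59 to 2.50) and 2.74 (2.28 to 3.29). In the blocked fit without both samples numbered 1, an alternative added after the data were seen, the fold change was 1.25 (edgeR adjusted p = 0.0204), within a range of 0.0204 to 0.963 over 21 alternatives.

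Fasl, the ligand of the death receptor Fas, differed little between the group means. It had 0.721, 3.77 and 12.9 CPM in ILT3- samples 1, 2 and 3, and 7.22, 3.86 and 8.86 CPM in ILT3+ samples 1, 2 and 3. The groups overlapped fully, with means of 5.79 ± 6.32 and 6.65 ± 2.55 CPM (SD, n = 3 each). A log2 fold change of 0.19 (SE 0.89, edgeR adjusted p = 0.961) was fitted. Its direction differed by number: the ratio was 10.0 within number 1 (counting interval 4.40 to 28.2), 1.02 within number 2 (0.672 to 1.56) and 0.689 within number 3 (0.538 to 0.878). Without ILT3- sample 1, without ILT3- sample 2 or without ILT3+ sample 3 the fold change was below 0, at -0.33, -0.03 and -0.06.

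Serpinb9, the inhibitor of granzyme B, had 16.0, 16.7 and 29.6 CPM in ILT3- samples 1, 2 and 3, and 38.7, 53.9 and 61.1 CPM in ILT3+ samples 1, 2 and 3. All ILT3+ libraries were above all ILT3- libraries, with ILT3- sample 3 the highest of its group. Means were 20.8 ± 7.64 and 51.2 ± 11.5 CPM (SD, n = 3 each). At 1.30 (SE 0.32) the log2 fold change missed the threshold (edgeR adjusted p = 0.0994). With the block it was 1.33 (SE 0.22, edgeR adjusted p = 0.0203), and DESeq2 gave an adjusted p of 0.00581. Over 21 alternatives the fold change ran from 1.14 to 1.65 and the adjusted p from 0.00172 to 0.316, and without both samples numbered 1 the edgeR adjusted p was 0.0474. The ratio within numbers 1, 2 and 3 was 2.42 (counting interval 1.99 to 2.96), 3.22 (2.76 to 3.77) and 2.07 (1.83 to 2.34). Dendritic cells also make Serpinb9, and their summed markers ran from 24.4 to 44.6 CPM in ILT3- and from 408.8 to 709.5 CPM in ILT3+ libraries. Their part in the Serpinb9 values was not tested.

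**Figure D3:**
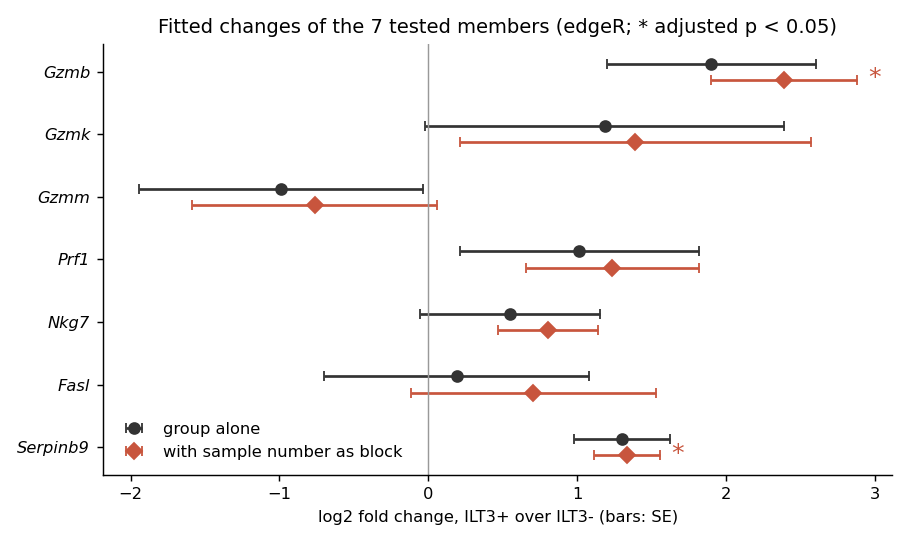
Log2 fold change of ILT3+ over ILT3- for the 7 tested members, with SE bars, from edgeR on group alone and with the sample number as a block. Gzmb (1.90 and 2.39) and Serpinb9 (1.30 and 1.33) pass the adjusted threshold with the block, marked by an asterisk, and Gzmm is the only member below 0.

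Levels of different genes were compared per length, on exon RPKM. In ILT3+ libraries Nkg7 (36.0 ± 14.2) and Gzmb (31.0 ± 7.62) were the most abundant members and did not differ beyond their spread. Serpinb9 followed at 13.3 ± 3.54, then Prf1 at 3.37 ± 1.97, Gzma at 2.86 ± 3.40 and Fasl at 2.83 ± 1.23, which overlapped one another (SD, n = 3 each). Gzmk was at 1.25 ± 0.853, Gzmc at 1.01 ± 1.40 and Gzmm at 0.154 ± 0.0416. In ILT3- libraries Nkg7 (24.8 ± 21.7), Gzmb (8.42 ± 8.82) and Serpinb9 (5.75 ± 2.04) again stood first by mean. Gzmb overlapped both Nkg7 and Serpinb9, while every Nkg7 value was above every Serpinb9 value. Next by mean were Fasl (2.77 ± 3.07), Prf1 (1.46 ± 1.06), Gzmc (1.12 ± 1.93) and Gzmm (0.851 ± 0.844). The lowest were Gzmk (0.189 ± 0.327) and Gzma (0.0597 ± 0.103).

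Gzmb made up most of the granzyme message in 5 of the 6 libraries. Its share of the summed exon RPKM of the member granzymes, which leaves out Gzmf, was 83.8%, 49.9% and 89.4% across ILT3- samples 1, 2 and 3. Across ILT3+ samples 1, 2 and 3 it was 87.1%, 71.9% and 95.6%. The summed exon RPKM of the member granzymes did not overlap between ILT3- (22.1, 5.11 and 4.64) and ILT3+ (42.9, 31.3 and 34.6). The ratio of Gzmb to its inhibitor Serpinb9 on this scale was 4.25, 0.532 and 0.513 across ILT3- samples 1, 2 and 3, against 3.95, 1.62 and 2.01 across ILT3+ samples 1, 2 and 3. Both samples numbered 1 thus had about 4 times as much Gzmb as Serpinb9 whatever their group, and within numbers 2 and 3 the ratio was higher in ILT3+. The ratio of Gzmb to Prf1 was 8.13, 9.52 and 2.26 across ILT3- libraries, and 13.2, 13.1 and 5.96 across ILT3+ libraries, so Prf1 was the scarcer message in all 6 libraries.

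Across the 6 libraries Gzmb went most closely with Nkg7 among the other tested members (Pearson r = 0.886 on log2 CPM), then with Prf1 (0.762) and Serpinb9 (0.618). It was near 0 with Fasl (-0.09) and Gzmk (-0.04) and negative with Gzmm (-0.680). Gzmm ran against Prf1 (-0.930). These values are descriptions over 6 points that share 2 groups and 3 numbers. Of 8627 tested genes of at least 10 CPM, those most like Gzmb were Rab27a (0.993), which tethers cytotoxic granules to the plasma membrane, Cass4 (0.991), an adaptor of focal adhesions, and Adam19 (0.990), a membrane metalloprotease. Rab27a had 82.8, 42.9 and 54.6 CPM in ILT3- samples and 105.1, 82.7 and 99.9 CPM in ILT3+ samples, and was not called (log2 fold change 0.68, SE 0.26, edgeR adjusted p = 0.305). Among the genes most like Serpinb9 were Plk1 (0.994), a mitotic kinase, and Stx7 (0.992), a SNARE of late endosomes. None of these 5 was called in the fit on group alone, and Cass4 (edgeR adjusted p = 0.0291) and Adam19 (edgeR adjusted p = 0.0416) were called with the block.

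Among 12 genes that process granzymes or share their granules, edgeR called 0 higher and 1 lower, where 1.96% of all genes were called higher and 0.343% lower. The median log2 fold change of the 12 was 0.34. Igf2r, a mannose 6-phosphate receptor that carries enzymes such as granzymes to lysosomes, had 241.7, 257.8 and 219.4 CPM in ILT3- and 91.5, 78.4 and 87.4 CPM in ILT3+ samples. Igf2r fell by 1.48 on the log2 scale (SE 0.17, edgeR adjusted p = 0.00760), with no overlap between the groups, and the call was lost in 2 of 21 alternatives. M6pr, the other mannose 6-phosphate receptor, lay the other way, at 291.1, 289.3 and 428.1 CPM in ILT3- and 456.3, 504.6 and 594.3 CPM in ILT3+ samples. Its log2 fold change of 0.62 (SE 0.22) was called with the block (edgeR adjusted p = 0.0223) and not without it (edgeR adjusted p = 0.249). Srgn, the proteoglycan that packs granzymes in granules, had a log2 fold change of 0.47 (SE 0.24, edgeR adjusted p = 0.446), and 0.0284 was its adjusted p with the block. Cd63, a tetraspanin of granule membranes, was called with the block too (edgeR adjusted p = 0.0486). It stood at 0.275 ± 0.284 and 3.00 ± 0.429 CPM (SD, n = 3 each). With 8 reads in ILT3- and 106 in ILT3+ libraries, Cd63 passed the read filter only because of its ILT3+ reads.

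Of 17 genes of granule transport and exocytosis 16 were in the files and tested. Of these edgeR called 0, beside 2.31% of all tested genes, and 3 had an unadjusted p under 0.05, beside 13.8%. DESeq2 called 2 of the 16 and limma-voom 0, beside 6.92% and 2.4% of all tested genes. Their median log2 fold change was 0.12. The 2 most abundant, Ap3b1 of the adaptor complex AP-3 and the late endosomal GTPase Rab7, had log2 fold changes of -0.30 and 0.03. Stx11, the syntaxin of cytotoxic granule fusion, was the only one called with the block, beside 6.81% of all tested genes. Its edgeR adjusted p was 0.0262 with the block and 0.127 without. It had 62.8, 73.3 and 90.3 CPM in ILT3- samples and 93.9, 223.3 and 230.2 CPM in ILT3+ samples, so its lowest ILT3+ library lay just above its highest ILT3- library. Of 12 other death ligands, receptors and their signalling genes edgeR called 0 with or without the block. At an unadjusted p under 0.05 there was 1 of the 12, beside 13.8% of all tested genes, and the median log2 fold change was 0.21. DESeq2 and limma-voom also called 0 of these 12. Among them Ltb, a membrane lymphotoxin, had a log2 fold change of -0.21 and Cflar, an inhibitor of caspase-8, one of 0.18.

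Other serpins that act inside cells were read beside Serpinb9. Of 11 listed, 6 were tested and 2 rose, Serpinb1a and Serpina3f, and 0 fell, beside 1.96% and 0.343% of all tested genes. Serpinb1a, an inhibitor of neutrophil-type proteases, had 2.28, 1.02 and 2.18 CPM in ILT3- and 48.8, 45.0 and 37.8 CPM in ILT3+ samples. It rose by 4.59 on the log2 scale (SE 0.40, edgeR adjusted p = 0.00317) and was called in all 21 alternatives. Serpina3f had 0.360, 4.32 and 4.36 CPM in ILT3- and 23.8, 51.4 and 104.7 CPM in ILT3+ samples, and its call was lost in 8 of 21 alternatives. Its relative Serpina3g, an inhibitor of cathepsins, had 60.9, 12.1 and 9.88 CPM in ILT3- and 282.8, 118.7 and 217.4 CPM in ILT3+ samples and was called with the block (edgeR adjusted p = 0.00945, against 0.0992 without). Of its reads 5.77% were unique, so they may be shared with its near-identical copies. The genes next to Serpinb9 were scarce: Serpinb9d, Serpinb9e and Serpinb9g had 0 reads, Serpinb9c and Serpinb9f had 2 and 4 intronic reads, and Serpinb9b had 11 reads in ILT3- and 60 in ILT3+. Serpinb6a, the most abundant of the family after Serpina3g, had a log2 fold change of 0.43 (edgeR adjusted p = 0.387).

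**Figure D4:**
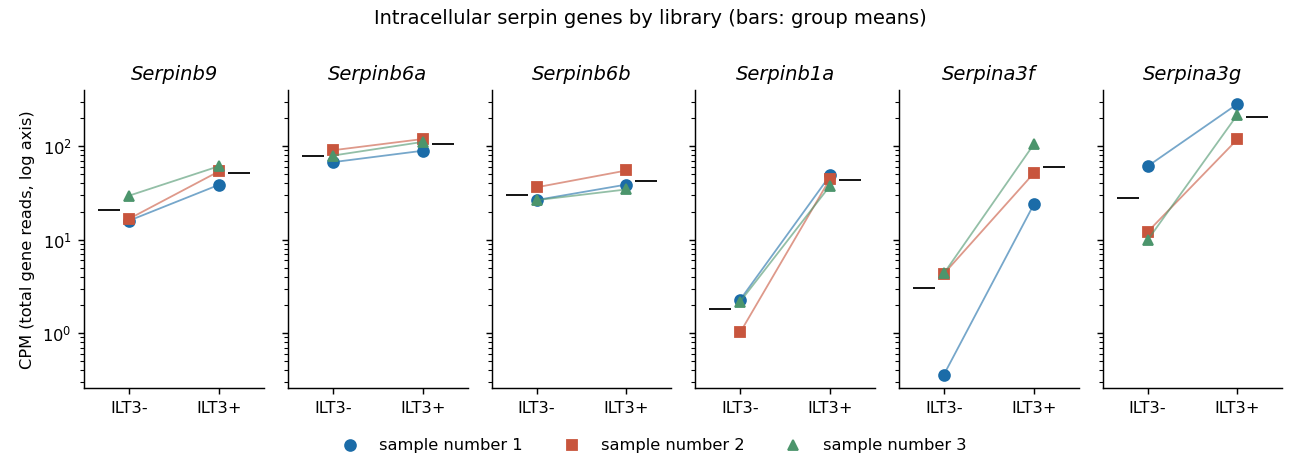
CPM of Serpinb9 and related intracellular serpins in each library on a log axis, ILT3- and ILT3+ side by side, a point per library, a line joining the same number and a bar at each group's mean. Serpinb1a shows the widest gap between the groups, Serpinb9 a narrower one without overlap, and Serpinb6a and Serpinb6b overlap.

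Of 13 transcription factors that regulate cytotoxic genes 12 were tested, 4 rose (Prdm1, Id2, Runx3 and Batf) and 0 fell, beside 1.96% and 0.343% of all tested genes, with a median log2 fold change of 1.64. This list and the next were chosen with earlier results for some of their genes known. Runx3, the RUNX factor of cytotoxic T cells, had 12.7, 13.7 and 12.2 CPM in ILT3- and 55.4, 107.2 and 142.6 CPM in ILT3+ samples. Its log2 fold change was 2.98 (SE 0.35, edgeR adjusted p = 0.00980), and the call was lost in 5 of 21 alternatives. Of Runx3 reads 20.1% in ILT3- and 60.2% in ILT3+ were intronic, so part of the rise in CPM lay in intronic reads. On exon RPKM the Runx3 means were 2.02 ± 0.365 in ILT3- and 8.18 ± 2.56 in ILT3+ (SD, n = 3 each). On that scale ILT3+ sample 3 (7.54) was below ILT3+ sample 2 (10.99). Tbx21, which encodes T-bet and is named here after its values were seen, had 2.64, 6.60 and 9.37 CPM in ILT3- and 11.7, 32.6 and 73.1 CPM in ILT3+ samples. It was called with the block (edgeR adjusted p = 0.00763, against 0.128 without). Stat4 and Stat5b, the 2 most abundant of the list, had log2 fold changes of -0.12 and -0.41 and were not called. Runx3 and Tbx21 were both higher in every ILT3+ library than in any ILT3- library, and among ILT3+ libraries both were lowest in sample 1. Their part in the Gzmb values was not tested.

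Surface receptors and chemokines that often accompany granule genes were read alongside. Of 15 listed, 14 were tested, 6 rose (Fcer1g, Klrg1, Ccl5, Cd244, Tyrobp and Klrk1) and 0 fell, beside 1.96% and 0.343% of all tested genes, with a median log2 fold change of 2.16. Cd244 and Klrk1 had 1 and 2 reads over the ILT3- libraries, against 145 and 176 over the ILT3+ libraries. Both passed the read filter only because of their ILT3+ reads, so a fall could not have been called for them. Tyrobp had 1.80, 0.471 and 0.872 CPM in ILT3- and 47.8, 13.8 and 9.25 CPM in ILT3+ libraries, and Cd244 and Klrk1 were likewise highest in ILT3+ sample 1, at 8.26 and 9.76 CPM. That library also held 718.1 CPM of macrophage and monocyte markers, whose part in these rises was not tested. Ifng, Slamf7 and Cd160, named after their values were seen, overlapped between the groups and were not called. Ccl5, a chemokine stored in secretory vesicles of T cells, had 8.29, 13.7 and 7.78 CPM in ILT3- and 40.0, 132.3 and 127.8 CPM in ILT3+ samples. Of 21 alternatives, the call of Cd244 was lost in 10, those of Ccl5 and Tyrobp in 7 each, that of Klrg1 in 4 and that of Fcer1g, a signalling chain, in 0. The call of Klrk1 was not followed in this way.

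**Figure D5:**
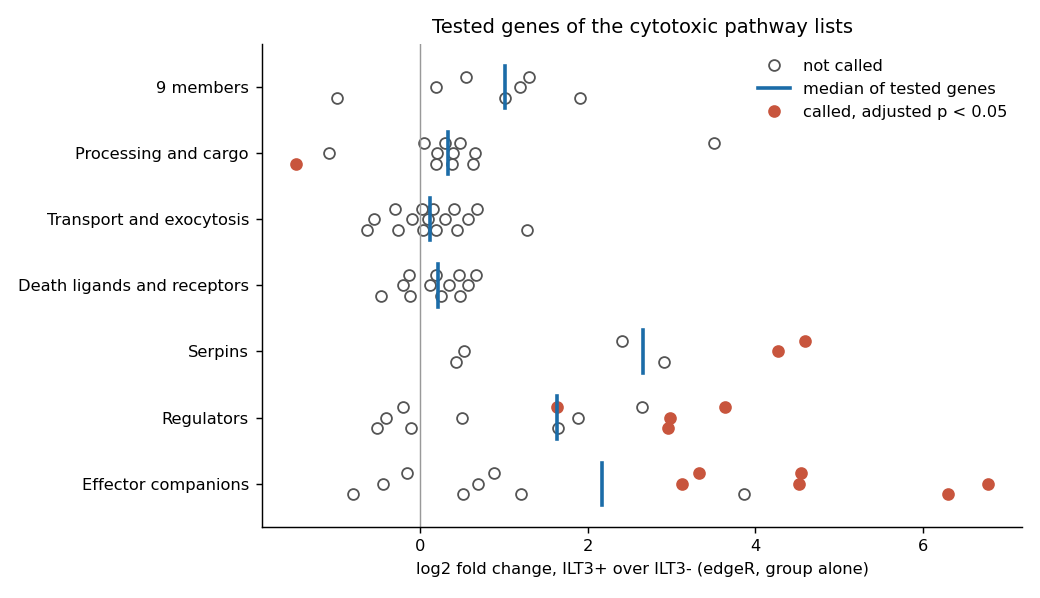
Log2 fold change of ILT3+ over ILT3- for every tested gene of the members and the 6 pathway lists, a point per gene, filled where the adjusted p is under 0.05, and a bar at each list's median. The members have a median of 1.02 and 0 called, and the regulators and effector companions have 4 and 6 called.

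Granule genes are also expressed by other cells, and their markers were read in the same libraries. The 9 NK and innate lymphoid markers summed to 10.5, 2.67 and 0.509 CPM in ILT3- samples 1, 2 and 3, and to 32.2, 5.87 and 3.59 CPM in ILT3+ samples 1, 2 and 3. None of the 9 had enough reads to be tested, Klra8 was at 0, and most of the sum in ILT3+ sample 1 was Klrb1c (23.9 CPM) and Ncr1 (5.82 CPM). Klri2 had 0 reads in ILT3- libraries and 8, 11 and 18 reads in ILT3+ samples 1, 2 and 3. Itga2 had 51 reads in ILT3+ sample 2, and Eomes had 74 reads in ILT3- against 15 in ILT3+ libraries. Without ILT3+ sample 1 the log2 fold change of Gzmb was 1.76 (edgeR adjusted p = 0.385). The part of NK cells in the Gzmb values was not tested. The CD8 genes Cd8a and Cd8b1 summed to 30.8, 11.5 and 17.1 CPM in ILT3- and to 17.4, 13.8 and 17.8 CPM in ILT3+ samples. They were highest in ILT3- sample 1, the ILT3- library with most Gzmb and Nkg7, and their part in that was not tested. Of 8 mast cell and basophil markers 6 were at 0 in all libraries, and the sum did not exceed 2.88 CPM in any.

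Myeloid markers differed more. Of 6 tested dendritic cell markers 3 were called on group alone (Batf3, H2-Ab1 and H2-Eb1), beside 2.31% of all tested genes. With the block 4 were called, Zbtb46 being added, beside 6.81% of all tested genes. The sums of the dendritic cell markers are given with Serpinb9. Most of the ILT3+ sum was the class II genes H2-Ab1 (361.6, 195.7 and 189.9 CPM) and H2-Eb1 (314.8, 166.3 and 155.6 CPM). Of the other listed markers Cd209a was at 0 in all libraries and Clec9a at 0 in ILT3+ libraries. Itgax had 49, 0 and 1 reads in ILT3+ samples 1, 2 and 3 and 0 in ILT3- libraries. Batf3 had 0.240, 0 and 0.363 CPM in ILT3- and 14.45, 13.03 and 14.84 CPM in ILT3+ samples. Zbtb46 had 1.44, 9.82 and 10.54 CPM in ILT3- and 11.82, 25.65 and 35.98 CPM in ILT3+ samples. Xcr1 had 0, 16 and 20 reads in ILT3- and 0, 85 and 140 reads in ILT3+ samples. Flt3 was mostly intronic and overlapped between the groups. Macrophage and monocyte markers summed to between 7.78 and 22.7 CPM in ILT3- libraries, to 718.1 CPM in ILT3+ sample 1 and to 24.9 and 30.1 CPM in ILT3+ samples 2 and 3. On group alone 0 of 6 tested were called. With the block 3 of 6 were called higher, Emr1, C1qb and C1qc (edgeR adjusted p = 0.0271, 0.0146 and 0.0362), where 6.81% of all tested genes were called. C1qb and Lyz2 did not overlap between the groups. Plasmacytoid dendritic cell markers summed to between 45.2 and 57.6 CPM in ILT3- and to between 98.03 and 126.6 CPM in ILT3+ libraries. That sum was mostly Ccr9, of whose reads 8.38% were unique, and Tcf4, mostly intronic, while the defining marker Siglech was at 0.399 ± 0.346 and 0.286 ± 0.112 CPM (SD, n = 3 each) and Klk1 and Cox6a2 were at 0. B cell markers ran from 20.7 to 29.8 CPM and from 28.6 to 64.5 CPM, and neutrophil markers did not exceed 0.402 CPM. Erythroid genes summed to between 0.550 and 5.29 CPM in ILT3- and to between 42.1 and 202.4 CPM in ILT3+ libraries. Of these, 2 of 4 tested were called on group alone and 4 of 4 with the block, beside 2.31% and 6.81% of all tested genes. The 4 tested erythroid genes, Batf3 and C1qb passed the read filter only because of their ILT3+ reads. Fcer1g and Tyrobp are also myeloid genes. The part of these cells in the results was not tested.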

How the data were processed

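Per the labels' protocols, each library began from 1 ng of total RNA, copied to full-length cDNA (SmartSeq V2) and tagged with Nextera XT. The build is GRCm38 per the submitters' processing notes, while aligner, counting tool and strand use are not given in these sources. The authors deposited a table per sample of read counts for 38924 gene models (total, unique, exon, intron and junction reads). Per the file headers, the deposited tables also hold other columns, of which the exon lengths gave the exon RPKM computed here and the coordinates gave positions; the deposited RPKM was not used.

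Total gene reads were tested with edgeR 4.0.16 (R 4.3.3; TMM, default filter with minimum count 10 and total 15, robust quasi-likelihood fit on group alone, Benjamini-Hochberg threshold 0.05; 13694 genes). They include intronic and multiply matching reads. Alternatives included DESeq2 1.42.0, limma 3.58.1 voom, unique or exon reads, other scalings and filters, and leaving out samples. Counting intervals are exact at 95%, and they and the 3-read floor cover counting error only, since reads carry no molecular identifiers.

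Deviations from group means correlated at 0.40, 0.26 and 0.27 between same-numbered samples, all above the bound of 0.1 set for pairing. The crossed pairs of numbers 2 and 3 also exceeded this bound (0.12 and 0.16), while the crossed pairs with number 1 ran from -0.305 to -0.2585. The same-numbered pairs were thus the highest, and the labels state no pairing. The main fit was on group alone, and the number entered as a block only in alternative fits. If the numbers do pair samples, the fit on group alone leaves that pairing out.

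The members and lists were chosen with earlier results of these data known. Named genes are the 9 members, the other granzymes, called genes (up to 5) and the 2 most abundant of each list, and the 3 genes most like Gzmb and Serpinb9, of which 1 is not reported here. Cd63, Stx11, Tbx21, Serpinb6b and the Serpinb9 relatives were named after their values were seen. So were the markers Batf3, Zbtb46, Xcr1, Flt3, C1qb, C1qc and Lyz2. Promoter windows are from RefSeq (GRCm38.p6).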

Additional observations from a re-analysis of the deposited data

How the results depend on the processing

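In the fit on group alone 0 members and 316 genes were called. With the replicate block these were 2 and 932, on unique reads with the block 2 and 825, and on exon reads with the block 2 and 700. DESeq2 called 1 and 948, and the fit without both samples numbered 1 called 2 and 786. With the block and without both samples numbered 1, 2 or 3 the members called were 3, 0 and 0, and all genes called were 1701, 129 and 96. Leaving out 1 sample at a time gave 0 to 1 members and 31 to 322 genes. Leaving out 1 sample gave Gzmm log2 fold changes from -1.49 to 0.35 and Fasl from -0.33 to 1.54. Fasl was at -0.36 without both samples numbered 1 and at -0.24 with the block as well. Apart from these, no member changed sign in any alternative in which it was tested. The lists had 0 to 4 called genes for processing and cargo, 0 to 3 for transport, 0 to 1 for death ligands, 1 to 3 for serpins, 2 to 7 for regulators and 1 to 9 for companions. The block changed no other member's call than those of Gzmb and Serpinb9. Blocks on unique or exon reads, and blocks without a number, were chosen after seeing the data. Gzma, Gzmc, Gzmk and Gzmm held 2 to 95 reads in a group, a depth at which small differences are not detectable. The cause of each change was not tested.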

Other observations

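Within the ILT3- group, sample 1 stood above samples 2 and 3 in several granule genes and below them in others. Nkg7 was at 43.9 CPM in ILT3- sample 1 and at 9.51 and 12.1 CPM in samples 2 and 3, and Ctsw, a cathepsin of cytotoxic cells, was at 121.3 CPM against 32.5 and 47.2 CPM. Eomes, a T-box factor of cytotoxic cells, was at 6.01 CPM in that library against 1.73 and 0.145 CPM, and at 0.160 to 0.844 CPM in ILT3+ libraries. Gzmm, Gzmk and Fasl were at their lowest of the ILT3- group in the same library. These are values of single libraries, with no test.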
